A study of Taeniopygia guttata with 10 samples.

Results

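Half-methylated CpG clusters are short stretches of the zebra finch genome where every measured CpG was methylated in roughly every other read. They were chosen by the methylation degrees and read coverage that Reduced Representation Bisulfite Sequencing (RRBS) gave for untreated ZFTMA cells. A cluster is a run of at least 5 successive CpGs with at least 30 reads each, neighbours at most 100 bp apart, and every methylation degree between 35 and 65%. The rule found 1112 clusters, which held 6785 of the 936478 CpGs with at least 30 reads (0.725%). The methylation degree is the percentage of reads over a CpG that still show a cytosine after bisulfite treatment, and the degrees inside clusters are therefore a description and not a finding.

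The study used a diploid male line, G266, and a tetraploid female line, ZFTMA, both established from spontaneous non-neuronal tumors of zebra finches. Each line received 5-aza-2′-deoxycytidine (AZA) at 1 µM for 72 h, dosed again every 24 h, or only DMSO, the solvent, on the same schedule. ZFTMA cells were also left without treatment. MethylCap-seq, in which a methyl-binding protein domain pulls down methylated fragments, was made for all 5 conditions, RNA-seq for the 4 treated ones and RRBS for untreated ZFTMA only. Each condition of each line gave 1 library, so the 2 lines were the replicates of a treatment, and p-values measure the spread between these libraries only. Both are tumor lines of a cell type that the labels do not give, and no second RRBS library was used here to repeat the choice of clusters. The treated RNA-seq libraries held 22306354 to 35075936 counts in genes and the MethylCap-seq libraries 2549052 to 10358829 fragments in peaks, the AZA libraries the fewest.

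In vertebrate DNA most CpGs are methylated in nearly all copies, while CpG-rich promoters are methylated in almost none. Intermediate degrees are known from parent-specific imprints, from mixtures of cells in different states, from the edges of unmethylated islands and from repeated sequences whose copies differ. DNA methyltransferases copy methylation onto newly made strands, and AZA traps these enzymes once it is built into DNA. RRBS averages over reads, so the degree alone does not tell which of these states a CpG is in.

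Runs of intermediate degree were rare compared with runs at either end of the scale. The same rule with every degree at most 10% gave 22916 low clusters, and with every degree at least 90% it gave 10457 high clusters. Single CpGs of intermediate degree were not rare, since 163227 of the measured CpGs (17.4%) fell between 35 and 65%. Only 4.16% of these lay in a half-methylated cluster. When a band of 30 points was moved along the scale in steps of 5 points, the number of clusters fell from 27557 at 0 to 30% to 1112 at 35 to 65% and 1111 at 40 to 70%, and rose to 18941 at 70 to 100%. The share of CpGs in the band that lay in clusters was 68.6% at 0 to 30% and 42% at 70 to 100%, against 4.16% here. The band of the rule was thus among the positions with the fewest clusters. Counting error is widest at a degree of 50% and can break runs there more than at the ends of the scale. Its part in these counts was not tested.

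Most clusters were short. Of the 1112, 587 (52.8%) held the minimum of 5 CpGs, 260 held 6, and 164 (14.7%) held 8 or more. A further 1393 runs of 4 CpGs lay just outside the rule. The span ran from 12 to 296 bp with a median of 49 bp, against medians of 59 bp for low and 67 bp for high clusters. CpG density inside the clusters had a median of 12.3 per 100 bp, between the 10.4 of high and the 14.1 of low clusters. The median coverage of a cluster was 128 reads, with a middle range of 86 to 183 reads, against 133 reads in low and 86 reads in high clusters.

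The mean degree of a cluster ran from 36.4 to 61.5% with a median of 50.3%. In the 280 clusters with the lowest coverage (30 to 86 reads) the median was 50.4%, and in the 277 with the highest (184 reads or more) it was 50.1%. At the minimum of 30 reads a degree of 50% has an exact binomial 95% interval of 31.3 to 68.7%, wider than the band itself. At 129 reads, the median of the member CpGs, an observed degree of 49.6% has an interval of 40.7 to 58.5%. Such intervals cover counting error only, since duplicate reads were kept in RRBS. The SD between the CpGs of a cluster, which the band itself bounds, had a median of 7.48 points. Of the member CpGs, 2010 (29.6%) lay within 5 points of a limit of the band. Of the 1831 CpGs within 100 bp that ended a cluster, 477 (26.1%) missed the band by at most 5 points, 126 were at most 10% methylated and 187 at least 90%.

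Read counts inside clusters were not all independent. Where coverage was odd, 49.5% of member CpGs had an odd number of methylated reads, but where coverage was even only 39.4% had one. In 25 clusters the coverage and the number of methylated reads were even at every CpG. Over all CpGs with at least 30 reads the shares were 46.9% and 38.2%. Most of those CpGs lay at 0 to 30% (352335) or 70 to 100% (376882). An unmethylated CpG always has an even number of methylated reads, and in a fully methylated one this number equals the coverage. The shares over all CpGs therefore cannot tell whether the pattern was particular to the clusters. Where reads are counted in pairs the intervals are too narrow.

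The CpGs around the clusters covered the whole scale of methylation. Those at 51 to 100 bp from a cluster had a median degree of 49.6% (middle range 25.5 to 72.2%), and 31.9% of them were still in the band. At 1001 to 2000 bp the share in the band was 22.2%, against 17.4% of all CpGs. CpGs at the same 51 to 100 bp had a median degree of 0.962% around low clusters and 93.1% around high clusters. Within 50 bp of half-methylated clusters the share in the band was 26.2%, where the rule itself leaves out CpGs that would have extended the run.

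**Figure D1:**
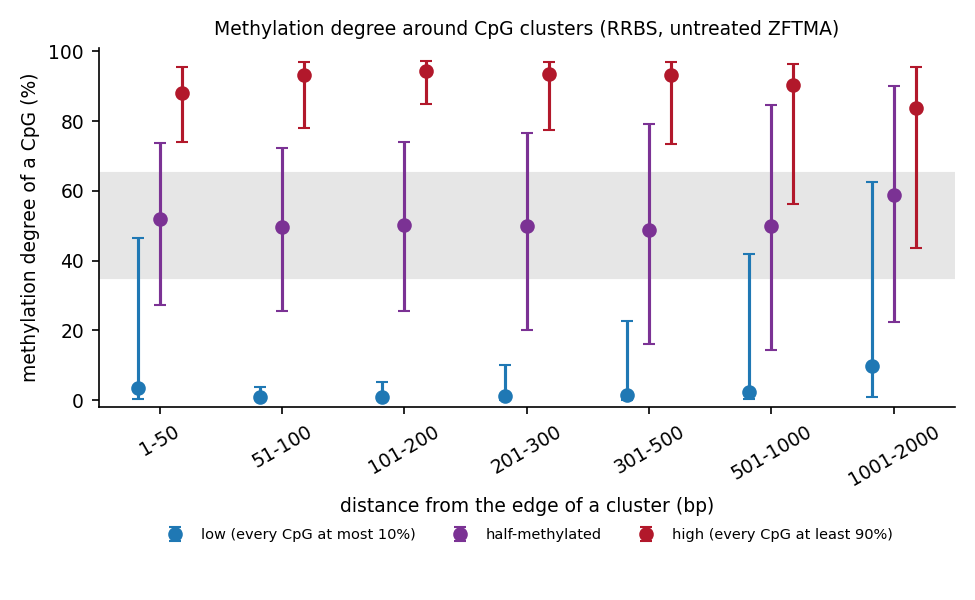
Methylation degree (%, vertical axis) of CpGs with at least 30 reads by distance in bp from the edge of half-methylated, low and high clusters in untreated ZFTMA. Points are medians over CpGs, bars the middle 50% of the values, and the shaded zone is the band of 35 to 65%; around half-methylated clusters the median stays between 48.9 and 52% out to 1000 bp and is 58.7% at 1001 to 2000 bp.

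Both flanks of 500 bp held at least 3 measured CpGs at 668 clusters. Of these, 181 (27.1%) had a mean degree between 35 and 65% on both sides. Another 151 had one intermediate and one high flank, and 137 one intermediate and one low flank. A further 95 (14.2%) sat between a low flank (under 35%) and a high one (over 65%). A high flank on both sides was seen at 71 clusters and a low one at 33.

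The clusters were spread over the genome. They occurred on 30 of the 31 placed chromosomes with at least 1000 measured CpGs, and on unplaced sequence (named Un in assembly taeGut3.2.4). There were 119 clusters per 100000 measured CpGs overall. The figure was 168 on chromosome 13, 166 on chromosome 18 and 162 on chromosome 6, and 56.1 on chromosome 22. Chromosome 1B had 0 clusters among 2190 measured CpGs. Unplaced sequence held 144 clusters (12.9%) and 11.3% of the CpGs. Of low clusters 4.16% were unplaced, and of high clusters 16.9%. The Z chromosome, which a male bird carries in a pair and a female with a W, held 53 clusters (4.77%) and 5.24% of the CpGs.

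Clusters often had neighbours. Another cluster lay within 10000 bp of 307 of them (27.6%), and joining clusters at that distance left 935 groups, 28 of them with 3 or more clusters. The largest group, at chr18:1454773-1470556, held 8 clusters with 49 CpGs, a mean degree of 50.4% and a median coverage of 161 reads. Its 4 covering peaks held 188, 40, 372 and 79 fragments in DMSO-treated G266 and 312, 92, 662 and 145 in DMSO-treated ZFTMA. Next came chr13:9759925-9780320 with 6 clusters and 54 CpGs, the most CpGs of any group. Groups of 5 clusters lay at chr3:29197926-29208336, around the gene NKX2-2, at chr1:7008316-7013195 and on unplaced sequence.

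The longest cluster, chrZ:24955997-24956292, held 26 CpGs over 296 bp, all between 36.1 and 62.9% methylated. Of its 4976 reads over CpGs, 2600 were methylated, which is 52.3%. The degree was 62.1% at its first CpG, fell to 36.1% at the CpG at position 24956076 and was 58.8% at its last. Coverage and methylated reads were both even at 20 of its 26 CpGs. The flanks of 500 bp averaged 60.9 and 41%. Its peak held 66 fragments in G266 and 104 in ZFTMA with DMSO, 34 and 35 with AZA, and 157 in untreated ZFTMA.

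The third longest cluster, chrUn:119332083-119332170, held 17 CpGs covered by 131 to 133 reads each. Of these CpGs, 16 lay between 36.8 and 41.4%, and the last was at 56.4%. No Methylation Peak covered it. The cluster at chrZ:57372780-57372868 was similar, with 15 CpGs at 142 or 143 reads and degrees from 44.8 to 58%. It lay between flanks of 85 and 91.8%, and no peak covered it either. Coverage that even was common, since the highest coverage was at most 1.1 times the lowest in 363 clusters (32.6%), in 30% of high and in 42.6% of low clusters.

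The other long clusters varied in setting. At chr13:213096-213225, 18 CpGs averaged 51.7% between flanks of 79.1 and 57.2%. At chr13:9775711-9775876, 16 CpGs averaged 41.1% in flanks that also averaged 41.1%. At chr11:7652782-7652904, 16 CpGs averaged 49.7%. At chrZ:28397978-28398186 and chr13:10166266-10166350, 17 CpGs averaged 53.9 and 53.3%. Of the 10 longest clusters, 3 had no peak, and peaks held only 2 of the 17 CpGs of the cluster at chrZ:28397978-28398186.

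A few clusters were covered far more deeply than the rest. The median coverage reached 1000 reads in 16 clusters (1.44%), against 0.1% of low and 0.182% of high clusters. Coverage is part of the rule and clusters are not replicates, so these shares are a description. Of these 16, 13 were unplaced, while 14 of the 19 high clusters at that depth were also unplaced. The deepest, chr28:218626-218677, had 5 CpGs at a median of 17510.0 reads and degrees from 35.1 to 62.2%. At chrUn:53425101-53425153, 15 CpGs at a median of 8671 reads lay between 35.6 and 43.5%, a narrow range. What sets these places apart was not tested.

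Some clusters shared the exact spacing of their CpGs. Of all 1112 clusters 28 (2.52%) did, against 0.943% of low and 1.96% of high clusters. The difference was wider among clusters with more CpGs. Among the 265 clusters of at least 7 CpGs, 13 (4.91%) had a spacing identical to that of another cluster, against 0.293% of 15716 low and 0.271% of 4793 high clusters of that size. These 13 clusters fell into 6 spacings. Of these, 5 are overlapping windows of one pattern read in either direction, and the sixth is the same pattern with one CpG missing. Its core is 7 CpGs with 8, 16, 6, 7, 20 and 2 bp from one CpG to the next, 61 bp in all. The core was chosen after the spacings were seen, and the counts on it are a description. It was found at 75 places where all 7 CpGs had at least 30 reads, 39 in one direction and 36 in the other, on 13 chromosome names, 50 of them unplaced.

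These 75 places did not share a methylation degree. Their means ran from 2.58 to 98%, with a median of 58.5% and an SD of 24.7 points between places. Within a place the range over the 7 CpGs had a median of only 12.2 points. In 17 places (22.7%) all 7 CpGs lay in half-methylated clusters, 5 places were at most 10% methylated on average and 7 at least 90%. Methylation Peaks covered 10 of the 75 places (13.3%). No sequence is shown for them because no genome of this assembly was used here.

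**Figure D2:**
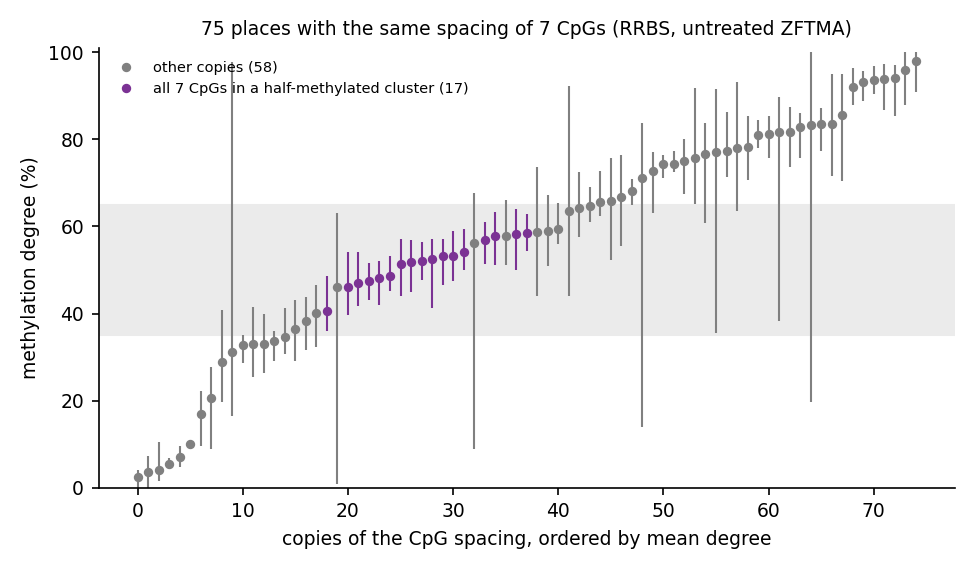
Mean methylation degree (%, points) and lowest to highest CpG (lines) of the 75 places that share the 7-CpG spacing in untreated ZFTMA, ordered by mean degree along the horizontal axis. The shaded zone is 35 to 65%; the 17 places whose CpGs all lay in half-methylated clusters sit inside it, and the others run from 2.58 to 98%.

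Methylation Peaks covered most half-methylated clusters. These peaks are regions that the authors called on the summed coverage of the DMSO libraries of both lines, with a threshold set on the same RRBS data, so coverage by a peak is not independent of the RRBS degree. At least 1 CpG lay in a peak for 943 of the 1112 clusters (84.8%), against 13.3% of low and 89.7% of high clusters. Of the measured CpGs as a whole, 58.1% lay in a peak, and of those in the band 63.3%. The share was 57.6% for unplaced clusters and 88.8% for clusters on named chromosomes. It was 88.6% for clusters of 5 CpGs and 68.9% for those of 8 or more. Clusters with a mean degree under 50% and at or over it were covered alike, at 85 and 84.6%. The 169 clusters without a peak included 61 unplaced ones (36.1%), and their median coverage of 125 reads and median degree of 50.3% were close to the 128 reads and 50.3% of covered clusters. The nearest peak lay within 500 bp for 97 of them.

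The clusters were covered by 866 peaks with a median width of 998 bp. A peak was thus much wider than the cluster inside it, and clusters spanned a median of 5.51% of their peak. The peaks held a median of 26 measured CpGs, of which 23.2% were in clusters, and the mean degree of all these CpGs had a median of 53.4%. A high cluster lay in 143 of the 866 peaks and a low cluster in 79. In 167 peaks at least 50% of the measured CpGs were in clusters.

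The fragments per covering peak lay between those of low and high clusters in every library. In G266 the median was 49 fragments with DMSO (range 0 to 906) and 13.5 with AZA (0 to 383). In ZFTMA it was 72 with DMSO (0 to 1394), 20 with AZA (0 to 545) and 97.5 without treatment (0 to 1906). Peaks of high clusters had medians of 59, 19, 89, 26 and 122 fragments in the same order, with a width of 1031 bp. Peaks of low clusters had 19, 3, 21, 5 and 26 fragments, with a width of 545 bp. Few of the 866 peaks were empty in a DMSO library, 2 in G266 and 1 in ZFTMA. Of all 719917 peaks, which were called on these DMSO libraries, 1928 were empty in G266 and 75465 in ZFTMA.

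**Figure D3:**
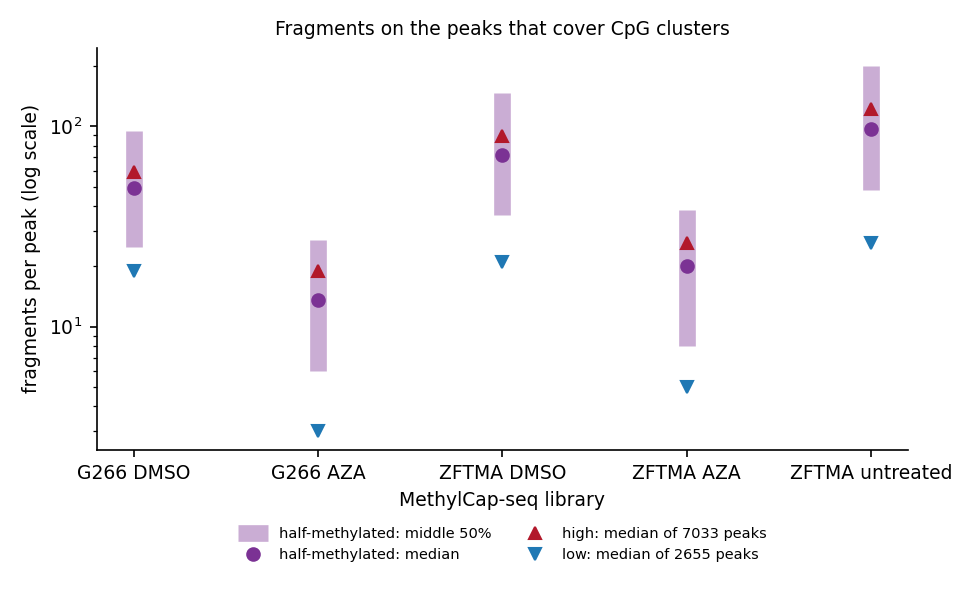
Fragments per Methylation Peak (log scale) in the 5 MethylCap-seq libraries. Circles and bars are the median and the middle 50% of the 866 peaks over half-methylated clusters, and triangles the medians of 7033 peaks over high and 2655 over low clusters; the circles lie between the triangles in every library, from 13.5 in G266 AZA to 97.5 in ZFTMA untreated.

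Untreated and DMSO-treated ZFTMA were close at these peaks. Relative to all fragments in peaks, the log2 ratio of untreated to DMSO had a median of 0.16 (middle range 0.01 to 0.31), against 0.17 at high clusters and -0.26 over all peaks, many of which held few fragments. Among peaks with 50 to 400 DMSO fragments the medians were 0.16 for half-methylated, 0.17 for high and 0.09 for low clusters, and 0.01 overall. The peaks were called on the DMSO libraries and the clusters were chosen on untreated ZFTMA, and both choices can shape these ratios. With 1 library each, the difference between untreated and DMSO-treated ZFTMA has no replicate check.

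After AZA the fragments on the covering peaks fell in both lines when scaled by the reads that mapped outside peaks, as in the study's methods. The peaks were called on the DMSO libraries, and the limits on fragments used below count DMSO fragments. Both choices favour a fall after AZA, and the reads outside peaks depend on the first. The calls are therefore a description and not independent evidence. In a quasi-likelihood test over all peaks with the cell line as a block (edgeR, Benjamini-Hochberg FDR of 0.1), 829 of the 866 peaks (95.7%) were lower and 0 higher. Of all 719917 peaks 54.6% were lower and 0.00167% higher, but most of those held few fragments. The study reported far fewer lower peaks at the same FDR, so these shares are not its results. Of all peaks with at least 20 fragments over the DMSO libraries 99.6% were lower, and of those with 50 to 400 fragments 99.8%. With 50 to 400 fragments 580 of 585 covering peaks (99.1%) were lower, so calls at half-methylated clusters were not more frequent than at peaks of like size.

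The size of the fall was likewise near that of other peaks. The log2 fold change had a median of -2.83 over the covering peaks (middle range -3.19 to -2.47), against -2.50 over all peaks, -2.61 over peaks of high and -3.08 over peaks of low clusters. Among peaks with 50 to 400 fragments the medians were -2.88 for half-methylated, -2.65 for high, -3.14 for low clusters and -3.05 overall. In the 167 peaks made up mostly of cluster CpGs the median was -2.90. With this scaling the fall was larger in ZFTMA, with a median log2 ratio of -3.18 against -2.34 in G266, and larger at 765 of the 866 peaks. The raw medians fell from 49 to 13.5 fragments in G266 and from 72 to 20 in ZFTMA. The reads outside peaks, used as library size, rose from 1914228 to 2714187 in G266 and from 832972 to 2019316 in ZFTMA. Over all peaks the median log2 ratios were -2.48 in ZFTMA and -2.38 in G266. The difference between the lines was not tested, since each line has 1 library per treatment.

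This result rests on the scaling. All fragments in peaks fell from 10358829 to 2549052 in G266 and from 8574525 to 2722135 in ZFTMA. Of them the 866 peaks held 0.654% with DMSO and 0.839% with AZA in G266, and 1.23 and 1.11% in ZFTMA. With TMM scaling, which sets the typical peak to no change, 0 covering peaks were lower and 1 was higher (71 and 15 at an unadjusted p under 0.05), and the median log2 fold change was -0.40 against -0.19 over all peaks. With all non-duplicate reads as library size 335 were lower and 8 higher, against 53025 lower and 735 higher of all 719917 peaks. In the fits over both lines the median of the covering peaks lay 0.16 to 0.48 below that of all peaks, but in G266 alone it was -2.34 against -2.38, and among peaks with 50 to 400 fragments it was likewise the higher one.

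**Figure D4:**
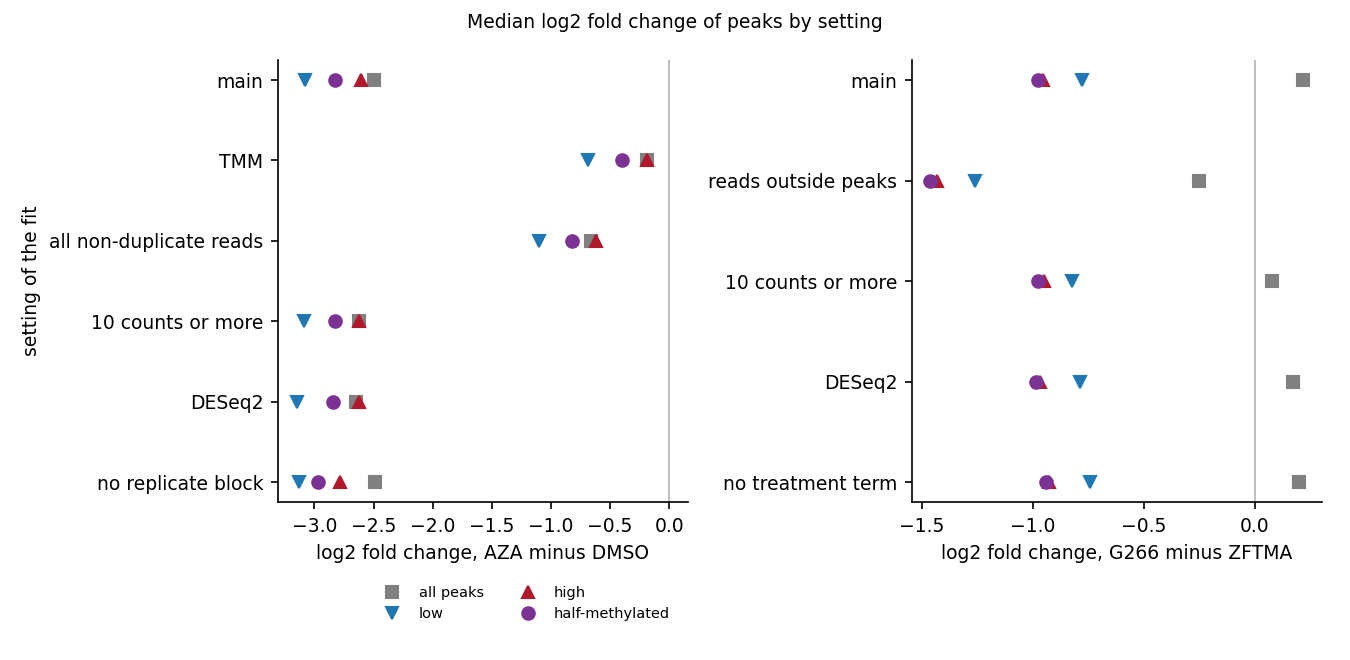
Median log2 fold change (horizontal axis) of peaks over half-methylated, high and low clusters and of all peaks, under each setting of the fit (vertical axis), for AZA against DMSO (left) and G266 against ZFTMA (right). Half-methylated clusters move with the other peaks when the scaling changes, from -2.83 to -0.40 after AZA, and lie beside high clusters in the comparison of the lines (-0.98 and -0.95 in the main setting).

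The largest falls among covering peaks with at least 20 DMSO fragments were at peaks of few to moderate counts. At chr1:32426120-32426647 G266 had 29 fragments with DMSO and 3 with AZA, and ZFTMA 59 and 3, a log2 fold change of -4.76 ± 0.63 (SE, edgeR adjusted p = 3.60e-11). At chr6:2900835-2901748 the counts were 39 and 2 in G266 and 39 and 4 in ZFTMA (-4.58 ± 0.59, edgeR adjusted p = 2.45e-11). At chr27:4000390-4000928 they were 20 and 1 in G266 and 22 and 2 in ZFTMA. At chr1:8087741-8088128 they were 12 and 0, and 34 and 4. At chr7:17809668-17809906 they were 9 and 1, and 11 and 0. In both lines these peaks held at most 4 fragments after AZA. With TMM none of these 5 was called (edgeR adjusted p from 0.141 to 0.629).

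At the other end of the same peaks, 4 of the 5 with the highest log2 fold change were unplaced, and none of the 5 passed the test. At chrUn:47716391-47717163 G266 had 22 fragments with DMSO and 55 with AZA, and ZFTMA 40 and 49 (log2 fold change -0.12 ± 0.49, edgeR adjusted p = 0.812). At chr13:16828399-16828876 the raw fragments were 65 and 81 in G266 and 115 and 126 in ZFTMA. At chrUn:173940390-173940651 they were 110 and 107, and 172 and 189. At chrUn:117397560-117398163 they were 31 and 22, and 24 and 42. At chrUn:53424801-53425246 they were 200 and 191, and 321 and 298. The clusters in the last 4 of these peaks are among the 16 that RRBS covered with at least 1000 reads, and the other deep clusters were not examined in this way. The part of that coverage in the result was not tested. With all non-duplicate reads as library size the 5 peaks were called higher, with log2 fold changes from 1.01 to 1.86 (edgeR adjusted p from 7.19e-06 to 0.00714). With TMM only chrUn:47716391-47717163 was (edgeR adjusted p = 0.0306). With DESeq2 the last peak and the one at chrUn:173940390-173940651 were called lower (adjusted p = 0.0203 and 0.0324). Without unplaced sequence, an alternative added after the data were seen, the median of the covering peaks was -2.85.

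Between the lines no covering peak passed the test. With TMM scaling and treatment in the model, edgeR called 0 of the 866 peaks at an FDR of 0.1, and 0 of all 719917 (percent called 0), and DESeq2 called 0 as well. Each line had only its DMSO and its AZA library here, so no library repeats a line under the same treatment. The p-values measure how far the line difference varied between the treatments, and the lack of calls does not show that the lines were alike. The clusters were chosen on RRBS of ZFTMA, and G266 had no RRBS. A choice made on ZFTMA alone can favour higher capture in that line. The values between the lines are therefore a description and not independent evidence. At an unadjusted p under 0.05, 322 covering peaks (37.2%) were lower in G266 and 0 higher, against 4.67% lower and 2.19% higher over all peaks. The share lower was 34.1% for peaks of high clusters. Among peaks with 50 to 400 fragments it was 44.4% for half-methylated clusters, 39% for high and 38.2% for low clusters, and 23.2% overall. The log2 fold change of G266 over ZFTMA had a median of -0.98 (middle range -1.19 to -0.76), and 850 of the 866 peaks (98.2%) were below 0, while the median over all peaks was 0.22. Peaks of high clusters had a median of -0.95 with 99.3% below 0, and peaks of low clusters -0.78 with 85.5%. Over all peaks with 50 to 400 fragments the median was -0.63. Medians below 0 were thus found for the peaks of clusters of all 3 kinds. It had a median of -1.31 in the DMSO libraries and -0.46 in the AZA libraries.

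With reads outside peaks as library size 232 covering peaks were lower in G266 and 0 higher, against 26467 lower and 117 higher of all 719917 peaks, and the median was -1.46 against -0.25 over all peaks. On the Z chromosome the 40 covering peaks had a median of -0.88 against -0.98 on the other named chromosomes. High clusters on Z had -0.98 against -0.95. The lowest covering peaks, picked after their values were seen, were chr23:2766727-2767085 with 5 fragments in G266 and 22 in ZFTMA with DMSO, and chr1:28671885-28672227 with 6 and 22. The highest was chr5:21900083-21900566 with 21 and 9 fragments (log2 fold change 0.79 ± 0.64, edgeR adjusted p = 0.942).

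Genes could be placed beside clusters only where the study's supplementary tables give a position, which they do for 3176 genes. Those tables were built from differences in these same libraries, so the genes are not a neutral sample and their changes after AZA are not independent evidence. Within a gene body or 2000 bp of it lay 149 clusters (13.4%), 88 of them overlapping the body. They belonged to 136 genes, 105 with a symbol, and 18 genes had 2 or more clusters. Strand was not used, so a position outside the body can be at either end of the gene.

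Among the gene lists used, regulators of development had the most genes at clusters. Of 115 listed, 34 had a position and 8 had a cluster, namely NKX2-2, FOXF1, FOXF2, HOXA6, EOMES, BARX1, MAB21L2 and EN2. Of 46 orthologs of genes imprinted in mammals 4 had a position and 1 a cluster, WT1, a zinc-finger transcription factor of kidney and gonad. Of 50 synaptic and neuronal genes 23 had a position and 1 a cluster, GRIN2A, a subunit of the NMDA receptor. Of 17 genes of the DNA methylation machinery 2 had a position and 0 a cluster. For comparison, 136 of all 3176 placed genes (4.28%) had one. Among the 1238 placed genes on the longer of the study's lists of genes raised by AZA, 71 (5.74%) did. The gene lists differ in how many genes had a position, and measured CpGs near each gene were not counted.

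After AZA, 84 of the 136 genes at clusters were higher in RNA-seq and 15 lower (edgeR with PoissonSeq depth and the cell line as a block, FDR of 0.1). Over all 18618 genes 28.1% were higher and 16.1% lower, but over the 3176 placed genes 50.8% were higher and 15.9% lower, against 61.8% and 11% at clusters. The median log2 fold change was 1.47 at clusters, 0.68 over placed genes and 0.10 over all genes. The longer of the study's lists of genes raised by AZA held 71 of the 136 genes and 1238 of the 3176 placed ones. As placed, this list is shorter than the number of raised genes that the study reported. The study's shorter list, of raised genes with lower promoter methylation, held 18 of the 136 and 357 of the placed ones. Some genes are on both lists, and others such as TRIM47 and FRZB only on the shorter. The genes at clusters thus came more often from a list chosen for a rise. The part of this makeup in the differences was not tested. DESeq2 tested 134 of the 136, gave 16 of them no adjusted p, and called 39 higher and 12 lower, against 2361 higher and 2519 lower of 16844 genes. The 126 peaks over these clusters had a median log2 fold change of -2.85 after AZA, and 122 of them were called lower, near the share among all covering peaks.

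Of the 8 developmental regulators, 7 rose after AZA, and NKX2-2 had at most 1 count in any library. These 7, WT1 and GRIN2A had a position only through the study's list of genes raised by AZA in these libraries. Their rise and its p-values follow from that choice and are not independent evidence. NKX2-2 was listed for lower promoter methylation instead. Among all 34 placed regulators 25 rose and 1 fell. WT1 had a cluster of 6 CpGs at chr5:3309468-3309513, at one end of its body, with a mean degree of 50.2%. Its normalised counts were 22.3 in G266 and 12.7 in ZFTMA with DMSO, and 373 and 246 with AZA, a log2 fold change of 4.16 ± 0.21 (edgeR adjusted p = 3.28e-81). Both AZA libraries were far above both DMSO libraries. The peak over the cluster held 206 fragments in G266 and 378 in ZFTMA with DMSO, 119 and 136 with AZA.

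EOMES encodes a T-box factor of early development and of the forebrain. A cluster of 6 CpGs (47.7%) lay outside its body, and its normalised counts went from 4.69 and 12.0 with DMSO to 50.6 and 54.0 with AZA in G266 and ZFTMA (2.55 ± 0.38, edgeR adjusted p = 1.03e-10). EN2, engrailed, patterns the midbrain and hindbrain. Its body held a cluster of 5 CpGs (53.2%), and its raw counts were 2 and 5 with DMSO and 32 and 27 with AZA (edgeR adjusted p = 4.22e-08). FOXF1, a forkhead factor of gut and lung mesenchyme, had 2 clusters with 14 CpGs in its body (49.0 and 50.8%). Its normalised counts rose from 57.5 and 29.9 to 171 and 87.5 (1.56 ± 0.21, edgeR adjusted p = 4.35e-12). In all 3 genes each AZA library exceeded the DMSO library of its line.

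BARX1, a homeobox gene of face and stomach, was at 0 counts in both DMSO libraries and at 24 in G266 and 9 in ZFTMA with AZA. Against a floor of 3 counts per library this is at least 7.18-fold higher in G266 and at least 4.33-fold in ZFTMA (edgeR adjusted p = 1.37e-06). Its body held 6 CpGs in a cluster at 56.4%. FOXF2, a forkhead relative of FOXF1, had raw counts of 0 and 1 with DMSO and 6 and 8 with AZA (edgeR adjusted p = 0.013). HOXA6, a Hox gene of the trunk, had 1 and 0 with DMSO and 5 and 5 with AZA (edgeR adjusted p = 0.0708), at a cluster of 8 CpGs with 52.1%. MAB21L2, a gene of eye development, had 3 and 5 with DMSO and 17 and 9 with AZA (edgeR adjusted p = 0.0278). These are low counts, and DESeq2 called none of the 4 (its adjusted p ran from 0.189 to 0.363).

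NKX2-2, a homeobox gene of the ventral neural tube, had 3 clusters of 5 CpGs each (54.1, 46.7 and 51.7%), all outside its body. It had 1 count in each G266 library and 0 in each ZFTMA library, so a change was not detectable at this depth. The 2 peaks over its clusters nonetheless lost fragments, from 16 to 11 and 57 to 15 in G266 and from 47 to 6 and 72 to 26 in ZFTMA (edgeR adjusted p = 1.48e-06 and 4.19e-06). GRIN2A rose from raw counts of 4 in G266 and 10 in ZFTMA to 52 and 47 (3.03 ± 0.40, edgeR adjusted p = 8.45e-13). Its cluster of 5 CpGs at 48.5% lay beyond one end of the gene.

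**Figure D5:**
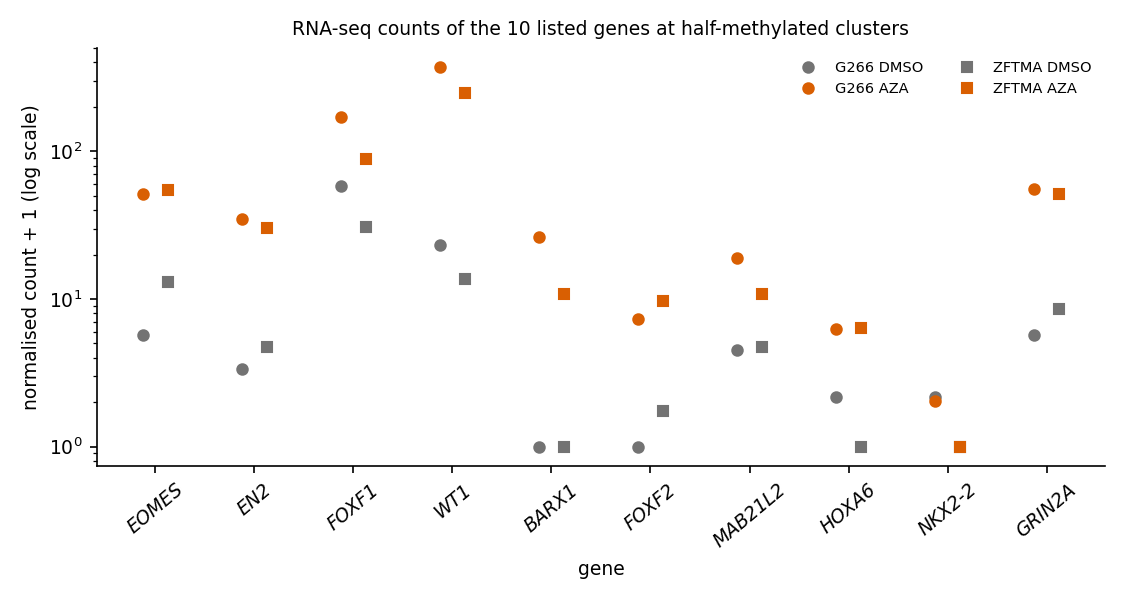
Normalised RNA-seq counts plus 1 (log scale, vertical axis) of the 10 genes of the lists with a half-methylated cluster, in the 4 libraries (circles G266, squares ZFTMA, grey DMSO, orange AZA). AZA libraries lie above the DMSO library of the same line for 9 of the 10 genes, such as 373 against 22.3 for WT1 in G266, and NKX2-2 has 1 count or 0 in each library. These 9 genes were placed through the study's list of genes raised by AZA in these libraries.

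Other genes at clusters belonged to none of the lists. TRIM47, the gene with the most cluster CpGs, encodes a RING-finger protein of the tripartite motif family and had 4 clusters with 26 CpGs within 611 bp at one end of its body, with means from 48.5 to 52.9%. Its normalised counts were 174 and 189 with DMSO in G266 and ZFTMA and 537 and 561 with AZA (1.60 ± 0.13, edgeR adjusted p = 9.86e-34). Yet its 2 covering peaks held few fragments. They were 3 and 9 in G266 and 7 and 15 in ZFTMA with DMSO, and 2 and 6, and 8 and 10 with AZA. The first of these peaks did not pass the test (log2 fold change -1.06 ± 0.80, edgeR adjusted p = 0.269). The second was called lower (-1.54 ± 0.55, edgeR adjusted p = 0.012). CBX8, a Polycomb chromobox protein, had 3 clusters with 16 CpGs outside its body (49.3, 52.2 and 51.3%) and rose from 65.7 and 88.3 to 131 and 140 (0.81 ± 0.19, edgeR adjusted p = 7.45e-05).

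Further genes were mixed in direction. Except SMG6, all named genes called higher in the main fit were on the study's lists of genes raised by AZA in these libraries. FRZB, a secreted inhibitor of Wnt signalling, had 2 clusters at one end of its body and rose from 397 and 607 to 643 and 1229 (0.87 ± 0.10, edgeR adjusted p = 7.72e-16). PRDM8, a PR-domain factor of neurons and retina, rose from raw counts of 1 and 2 to 23 and 14 (edgeR adjusted p = 1.72e-05). PAPPA, a protease that cleaves IGF-binding proteins, rose from 9 and 10 to 30 and 17. DMRT2, a relative of the Z-linked avian sex-determining gene DMRT1, rose from 0 in both DMSO libraries to 10 and 11 counts, at least 2.99-fold in G266 and 5.29-fold in ZFTMA (edgeR adjusted p = 1.35e-04). SMG6, of nonsense-mediated decay, had a log2 fold change of 0.42 ± 0.09, a call that DESeq2 did not make (adjusted p = 0.109), nor for CBX8 (0.158) or PAPPA (0.318). NPR2, a natriuretic peptide receptor on Z with 2 clusters of 5 and 6 CpGs in its body, was the only one of the 27 named genes called lower, from 493 and 344 to 298 and 306 (-0.45 ± 0.12, edgeR adjusted p = 0.00136). Without the cell line as a block this call was lost (edgeR adjusted p = 0.115), and with TMM CHD6 and CCDC84 were also called lower (edgeR adjusted p = 0.0862 and 0.0185). NPR2 was not among the 146 placed genes on the study's list of genes lowered by AZA.

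Of the remaining named genes, SUSD3, TTC36 and FIBIN rose and the others were not called. SUSD3 had raw counts of 4 and 5 with DMSO and 8 and 14 with AZA (edgeR adjusted p = 0.0791). CHD6, a chromatin remodeller with 11 CpGs at 43.3% outside its body, had normalised counts of 3743 and 3351 with DMSO and 3167 and 3576 with AZA (edgeR adjusted p = 0.545). NTN1, the axon guidance cue netrin, had 0 counts in 3 libraries and 5 in AZA-treated ZFTMA. NMBR and FAM109A had at most 3 counts in any library. A pair of clusters belonged to overlapping genes, whose counts cannot be fully told apart here. CCDC84 (normalised counts of 798 and 701 with DMSO, 737 and 595 with AZA, edgeR adjusted p = 0.174) shares a cluster of 10 CpGs with TTC36, which rose from raw counts of 11 and 3 to 20 and 24 (edgeR adjusted p = 0.0018). DESeq2 called neither SUSD3, TTC36 nor FIBIN (adjusted p = 0.524, 0.188 and 0.2). TNPO1 (normalised counts of 5203 and 5541 with DMSO, 5374 and 5774 with AZA, edgeR adjusted p = 0.672) contains FIBIN, which went from 0 in both DMSO libraries to 5 counts in each AZA library (edgeR adjusted p = 0.0182).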

How the data were processed

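MethylCap-seq of 5 libraries, RNA-seq of 4 and RRBS of 1 were used. The authors mapped MethylCap-seq reads with Bowtie2 2.1.0, RRBS reads with Bismark 0.9.0 and RNA-seq reads with STAR 2.3.0 to taeGut3.2.4. Only uniquely mapped reads were kept for MethylCap-seq and RRBS, and duplicates were removed from MethylCap-seq but not from RRBS or RNA-seq. The authors deposited fragment counts per Methylation Peak, counts per Ensembl gene (Rsubread), and for RRBS the read count per CpG with at least 10 reads. The authors also deposited the RRBS methylation degree as a percentage of reads.

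Peak counts were tested with edgeR 4.0.16 (quasi-likelihood) over all 719917 peaks, with reads outside peaks as library size, which were obtained from the read totals the study gives. Gene counts were tested over all 18618 genes with a depth estimated as in PoissonSeq. At the same FDR the study, with an earlier edgeR version, reported fewer genes changed after AZA in either direction, and far fewer lower ones. p-values were adjusted by Benjamini-Hochberg, and an FDR of 0.1 was the threshold. SE was taken from the log2 fold change and its F statistic, as the absolute value over the root of F. The cell line was the block of both AZA fits, since same-numbered libraries came from 1 line. The correlation of their deviations was 0.231 over 243734 peaks and 0.285 over 13141 genes, where 2 lines give 1 value. DESeq2 1.42.0, TMM, other library sizes, filters, other bands and coverage minimums, and each line alone were the alternatives. Ratios within a line used 0.5 added counts. R 4.3.3, Python 3.11.15 and scipy 1.17.1 were used. On simulated counts, 200 features with high expected counts were changed, among 50000 peaks or 18618 genes. For AZA 68.5% of 2-fold and 100% of 8-fold changes were recovered in peaks, and 98.5% and 100% in genes. The simulation used a low dispersion and no difference between the lines, so recovery at low counts was not examined.

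Clusters named were the 10 with the most CpGs. Named peaks were the 5 largest called falls and the 5 highest values among those with at least 20 DMSO fragments. Named genes were the 20 with the most cluster CpGs and all list members with a cluster. Positions and symbols came from the study's supplementary tables. The members, lists and tests were chosen with earlier results of these data known.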

Additional observations from a re-analysis of the deposited data

Results flagged for a closer look

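After AZA 3 named items had log2 ratios of opposite sign in the 2 lines, and none of these differences was tested, since each line has 1 library per treatment. The peak of 2 bp at chr13:10166318-10166319, which holds 1 CpG of a cluster of 17, had a log2 ratio of 1.08 in G266 and -1.64 in ZFTMA, from 0 and 1 fragments and from 4 and 3. The peak at chrUn:47716391-47717163 had 0.80 in G266 and -0.99 in ZFTMA, from 22 and 55 fragments and from 40 and 49. CHD6 had -0.24 in G266 and 0.09 in ZFTMA. Over all 866 covering peaks, 10 had opposite signs, and 1 of the 8 that were positive in G266 had at least 20 DMSO fragments.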

How the results depend on the processing

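The number of clusters went from 1112 to 663 with at least 100 reads per CpG and to 318 with a band of 40 to 60%. The share covered by a peak went from 84.8% to 82.3% when 50% of the CpGs had to be covered and to 79% for all of them. With TMM 0 covering peaks were lower after AZA (median log2 fold change -0.396) and with all non-duplicate reads 335 (-0.818), against 829 (-2.83). Each line alone gave medians from -3.18 to -2.34, and no count, since no test is possible with 1 library per treatment. Without the cell line as a replicate block the count was 691 (median -2.97), and DESeq2 gave 824. Among the lines, reads outside peaks as library size gave 232 peaks against 0. Of the 136 genes at clusters 84 (61.8%) were higher in the main fit, and DESeq2, which tested 134 of them, gave 39. Of the 78 genes with the cluster in the gene body 53 (67.9%) were higher in the main fit. The median over the genes at clusters was 1.37 with TMM, 1.01 with a filter on low counts and 1.24 to 1.39 with each line alone, against 1.47. TMM gave 4229 genes higher and 4081 lower of all genes, against 5238 and 2999, and DESeq2 2361 and 2519. Signs turned for NKX2-2 without the replicate block (0.172), CHD6 with total counts (0.00851) and TNPO1 with TMM (-0.0539) and DESeq2 (-0.0437). With TMM they turned for the peaks starting at chr13:10166318 (1.37), chr13:16828399 (1.75), chr13:212567 (0.0332), chrZ:24955781 (0.265) and chrUn:117397560 (1.71), 173940390 (1.59), 47716391 (2.31) and 53424801 (1.46). All non-duplicate reads gave 1.16 and 1.31 for the first and second of these, and 1.29, 1.15, 1.86 and 1.01 for the 4 unplaced ones. Their causes were not tested. DESeq2 ended the calls of 10 named genes, TMM that of SUSD3 (edgeR adjusted p = 0.106) and the fit without the block that of NPR2. TMM added CHD6 (-0.18) and CCDC84 (-0.28) as lower, and total counts added NTN1 (edgeR adjusted p = 0.0965) as higher. The alternatives added after the data were seen moved the median to no more than -2.90.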
